A study of Mus musculus with 8 samples.

Results

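The motile cilium and axoneme genes of mouse lung were compared between Slc15a3 knockout and wild-type mice after bleomycin, a drug that breaks DNA and scars rodent lung. They were chosen by annotation: a gene entered if the deposited table gave it the Gene Ontology term motile cilium, axoneme or cilium movement. Most genes of intraflagellar transport and the ciliary transition zone, recognised by symbol, named regulators of ciliated cell fate and genes of the glycolysis and oxidative phosphorylation pathways were then taken out, while a few transport and transition zone genes with other symbols, such as Traf3ip1 and Tmem67, remained. Of 18824 genes in the table, 228 carried a term, 25 of them were dropped and 203 remained. Motile cilium was given to 124 of these, axoneme to 95 and cilium movement to 42, and 46 had more than 1 term. The rule itself uses annotation and no measured value, but it was set with earlier results of these data known.

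The libraries were 4 from Slc15a3-/- mice given bleomycin (KO_BLM) and 4 from wild-type mice given bleomycin (WT_BLM). All mice were 8 weeks old, were dosed once through the trachea at 2 mg/kg in 50 µl saline, and were killed 21 days later. Whole lung was sampled, so every cell type of the organ contributes RNA, and the libraries hold polyadenylated RNA. Saline-treated mice were not analysed here, and the labels do not give the deletion's design, the strain or sex, nor say that each library is a separate animal, so the tests only weigh the scatter among these libraries, some of which may be technical.

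A motile cilium beats because dynein motors slide the 9 outer microtubule pairs of its core, the axoneme, past each other. Outer and inner dynein arms pull, the nexin-dynein regulatory complex and the radial spokes regulate them, and the central apparatus gives the beat its plane. In the lung such cilia stand on the multiciliated cells of the airways and sweep mucus upwards, and loss of many of these genes in people causes primary ciliary dyskinesia. The sperm tail is built on the same core with its own sheath and fibres, so annotated genes include sperm proteins, and some terms also cover primary cilia and genes with other main roles.

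Total counts ran from 17627999 to 18471445 in KO_BLM and from 18878835 to 20180831 in WT_BLM. Slc15a3 itself, the targeted gene, stood at 0.441, 0.279, 0.938 and 0.782 CPM in KO_BLM and at 51.4, 55.8, 52.2 and 45.8 CPM in WT_BLM, where CPM relates a count to the library size scaled by TMM. Ciliated cell markers that the annotation rule did not take were present in every library, with a summed level of 1059 to 1451 FPKM in KO_BLM and 544 to 639.8 FPKM in WT_BLM. Sec14l3 had by far the most reads of these markers, with means of 1679 CPM in KO_BLM and 1041 CPM in WT_BLM, and such a gene can dominate a sum. FPKM, the authors' value per gene length and depth, is used here only for sums and for comparing levels between genes. A list of 10 male germ cell markers summed to 0.474 to 0.740 FPKM in KO_BLM and 0.261 to 0.917 FPKM in WT_BLM, and only 1 of them could be tested and was not called, so sperm genes are described here by their annotation and not as signs of sperm. Within the groups, KO_BLM replicate 4 had the highest and KO_BLM replicate 1 the lowest levels of axoneme genes, and WT_BLM replicate 4 the lowest of its group, as described further on.

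Axoneme genes were higher in KO_BLM than in WT_BLM across all structures of the ciliary core. The fit could test 172 of the 203 genes, and 94 were higher, 16 lower and 62 not called at an edgeR adjusted p under 0.05. The median log2 fold change of the tested genes was 0.67. Among all genes of the table, 41.5% of 14746 tested genes were called, 20.7% as higher and 20.8% as lower, and the median was 0.0025, so a called gene is common in this comparison while the direction here was uneven. With library totals alone as scaling the split of all calls moved, with 62.7% of them higher against 50.0% with TMM, while of the called cilium genes 87.9% were higher, against 85.5% with TMM. In 87 tested genes every KO_BLM library lay above every WT_BLM library, and in 17 below, where 20.3% and 20.7% of all tested genes did so. Fewer cells of a type and less RNA per cell cannot be told apart in whole lung.

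Increases were most frequent in genes of the axoneme proper. By role, 86 of the 203 genes belong to 8 lists of dynein arms, docking complex, arm assembly, regulatory complex, radial spoke, central apparatus and microtubule doublet. These 86 are called axoneme genes here, whichever of the 3 terms they carry. Of the 80 tested, 65 were higher (81.2%), 0 lower and 15 not called, the median log2 fold change was 1.08, and 44 differed at least 2-fold. None of the 18 alternatives, DESeq2, limma and every fit without a library among them, called a gene of these 86 lower. At an unadjusted p under 0.05, edgeR gave 0 lower as well. The other 117 genes had 92 tested, 29 higher (31.5%), 16 lower (17.4%) and a median of 0.09. By term, cilium movement had 32 higher and 0 lower of 41 tested, motile cilium 57 and 10 of 99, and axoneme 50 and 6 of 89.

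**Figure D1:**
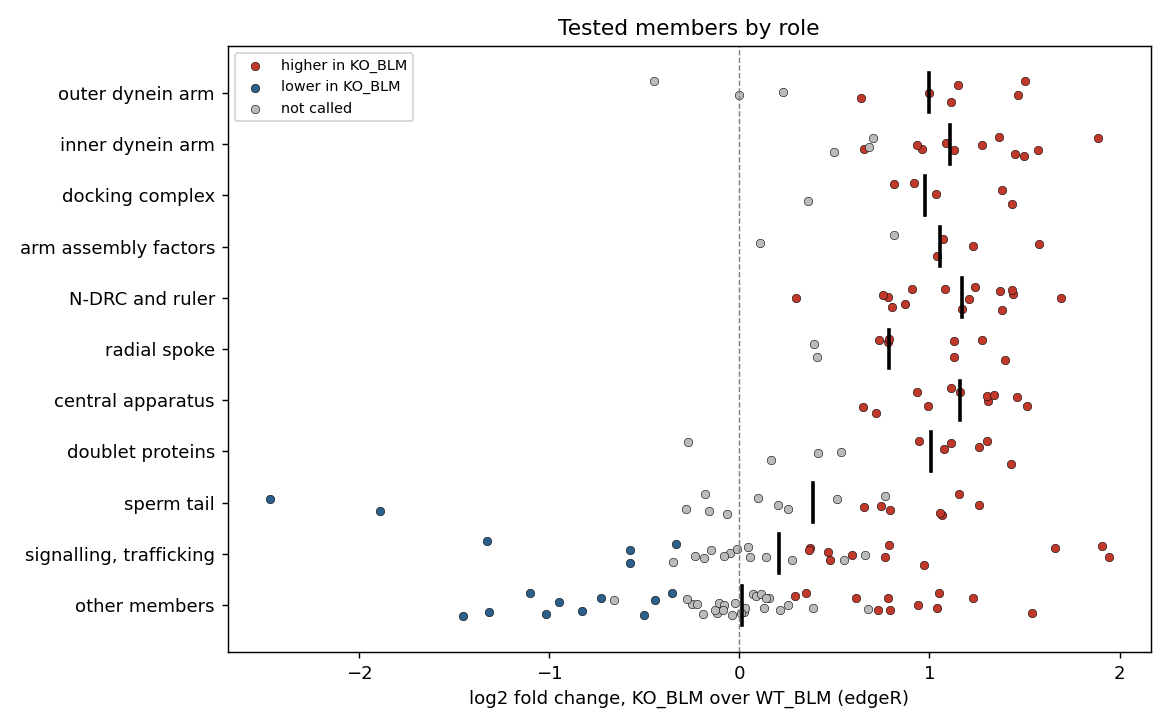
Each point is a tested gene, placed by its role (rows) and its edgeR log2 fold change of KO_BLM over WT_BLM (horizontal axis); black bars are the medians of the rows. Medians of the 8 axoneme rows lie between 0.79 and 1.17, and those of the 3 lower rows between 0.02 and 0.39.

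The list for the outer dynein arm, the motor that sets beat frequency, had 10 members, 9 of them tested, of which 6 were higher and 0 lower. Dnaic1, an intermediate chain of the arm (newer symbol Dnai1, NCBI Gene 68922, chromosome 4 from 41569647 to 41638158 in GRCm38), had 8.10, 10.7, 8.76 and 13.3 CPM in KO_BLM replicates 1 to 4 and 3.74, 4.76, 3.80 and 2.45 CPM in WT_BLM replicates 1 to 4. The groups did not overlap, and the log2 fold change was 1.46 (SE 0.23, edgeR adjusted p = 0.00118). Its partner Dnaic2 averaged 17.01 ± 2.36 CPM in KO_BLM and 7.67 ± 2.53 CPM in WT_BLM (SD, n = 4 each), 2.21-fold higher (edgeR adjusted p = 0.00356). Among the heavy chains, which carry the motor domain, Dnah11 (chromosome 12 from 117877982 to 118199043) had 12.9, 16.8, 14.5 and 19.3 CPM in KO_BLM and 6.87, 8.33, 9.70 and 6.86 CPM in WT_BLM, 2.00-fold higher without overlap (edgeR adjusted p = 0.00158). Dnah5 (chromosome 15 from 28154854 to 28472045) had 7.22, 18.1, 14.6 and 24.5 CPM in KO_BLM and 7.26, 7.44, 8.79 and 6.26 CPM in WT_BLM. Here KO_BLM replicate 1 lay inside the wild-type range while the other knockout libraries lay above it (edgeR adjusted p = 0.0165, log2 fold change 1.11, SE 0.31), and limma on log2(FPKM + 1) and log2(FPKM + 0.1) without a filter missed the call (limma adjusted p = 0.0555 and 0.0504, and 0.00125 to 0.0555 over all alternatives).

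Dnah9, the heavy chain of the outer part of the cilium, moved least of the called ones. It had 13.2, 20.5, 16.7 and 27.2 CPM in KO_BLM and 9.57, 14.2, 14.9 and 10.9 CPM in WT_BLM. The groups overlapped at KO_BLM replicate 1 (edgeR adjusted p = 0.0436, log2 fold change 0.64, SE 0.23). The call was lost without KO_BLM replicate 2, 3 or 4 (edgeR adjusted p = 0.0953, 0.0518 and 0.116), without WT_BLM replicate 1 or 4 (0.112 and 0.0961) and in the 3 limma fits on FPKM, and adjusted p ran from 0.0176 to 0.116 over all alternatives. Dnah8, known from sperm as the counterpart of Dnah5, had the most even knockout values of these chains, 9.47, 9.21, 9.75 and 9.44 CPM in KO_BLM against 2.58, 4.26, 4.29 and 2.18 CPM in WT_BLM (2.83-fold higher, edgeR adjusted p = 0.000878). Dnah17, also a heavy chain of sperm, had a log2 fold change of -0.45 and was not called (edgeR adjusted p = 0.198). Neither were Tctex1d2 and Tctex1d4, genes with a Tctex1 domain that were listed here, though their place in the outer arm was not checked.

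All 14 genes listed with the inner dynein arm, which shapes the bend, were tested, and 11 were higher and 0 lower (median log2 fold change 1.11). The largest difference was in Dnali1, a light intermediate chain of single-headed inner arms (chromosome 4 from 125055339 to 125065657), with 17.5, 25.3, 19.3 and 28.9 CPM in KO_BLM and 5.55, 7.44, 9.05 and 2.50 CPM in WT_BLM. Every knockout library exceeded the highest wild-type library, and the fold was 3.70 (edgeR adjusted p = 0.00184). An exon of Dnali1 overlaps Gnl2 on the other strand. The heavy chain Dnah10 had 23.9, 32.5, 20.1 and 31.2 CPM in KO_BLM and 11.9, 9.87, 12.4 and 7.57 CPM in WT_BLM (log2 fold change 1.37, SE 0.20, edgeR adjusted p = 0.000714). Ttc29 and Cfap43, listed with the inner arm, were 2.97-fold and 2.83-fold higher (edgeR adjusted p = 0.00116 and 0.00104). Cfap44, the partner of Cfap43, was not called (log2 fold change 0.70, edgeR adjusted p = 0.0571). Of the near-identical Dnah7 copies, which reads can be split between, Dnah7c was called (1.13, edgeR adjusted p = 0.0211) and Dnah7a and Dnah7b were not (0.68 and 0.50, edgeR adjusted p = 0.0900 and 0.0941). Counts in this list fell to 7 higher by limma on log2(FPKM + 1) with a filter of 1 FPKM, a filter that also removes some of its genes from the test.

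The docking complex, which anchors outer arms to the microtubule, had 5 of 6 tested genes higher and 0 lower. Ccdc114 rose with little spread, at 19.2, 24.2, 19.2 and 22.8 CPM in KO_BLM and 12.98, 12.6, 12.2 and 10.8 CPM in WT_BLM (1.76-fold, edgeR adjusted p = 0.000687). Ttc25, Ccdc151 and Cfap53 were 2.70-fold, 2.60-fold and 2.05-fold higher (edgeR adjusted p = 0.00205, 0.00796 and 0.00928). Efcab1 was not called (log2 fold change 0.36). Of the 6 arm assembly factors, which fold dyneins in the cytoplasm before they enter the cilium, 4 were higher. Zmynd10 (chromosome 9 from 107546872 to 107551321) had 11.7, 16.7, 11.4 and 14.3 CPM in KO_BLM and 3.69, 6.30, 5.73 and 2.40 CPM in WT_BLM, 2.98-fold higher with no overlap (edgeR adjusted p = 0.00201). Dnaaf1 was 2.34-fold and Dnaaf4 2.06-fold higher (edgeR adjusted p = 0.0110 and 0.0121), while Dnaaf5, at 0.11 on the log2 scale, and Ccdc103, at 0.82, were not called (edgeR adjusted p = 0.393 and 0.1). Lrrc6 was 2.10-fold higher (edgeR adjusted p = 0.0203) but not called without KO_BLM replicate 2 or 4 or WT_BLM replicate 1 (0.0504, 0.0539 and 0.0572; range over alternatives 0.00528 to 0.0572).

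**Figure D2:**
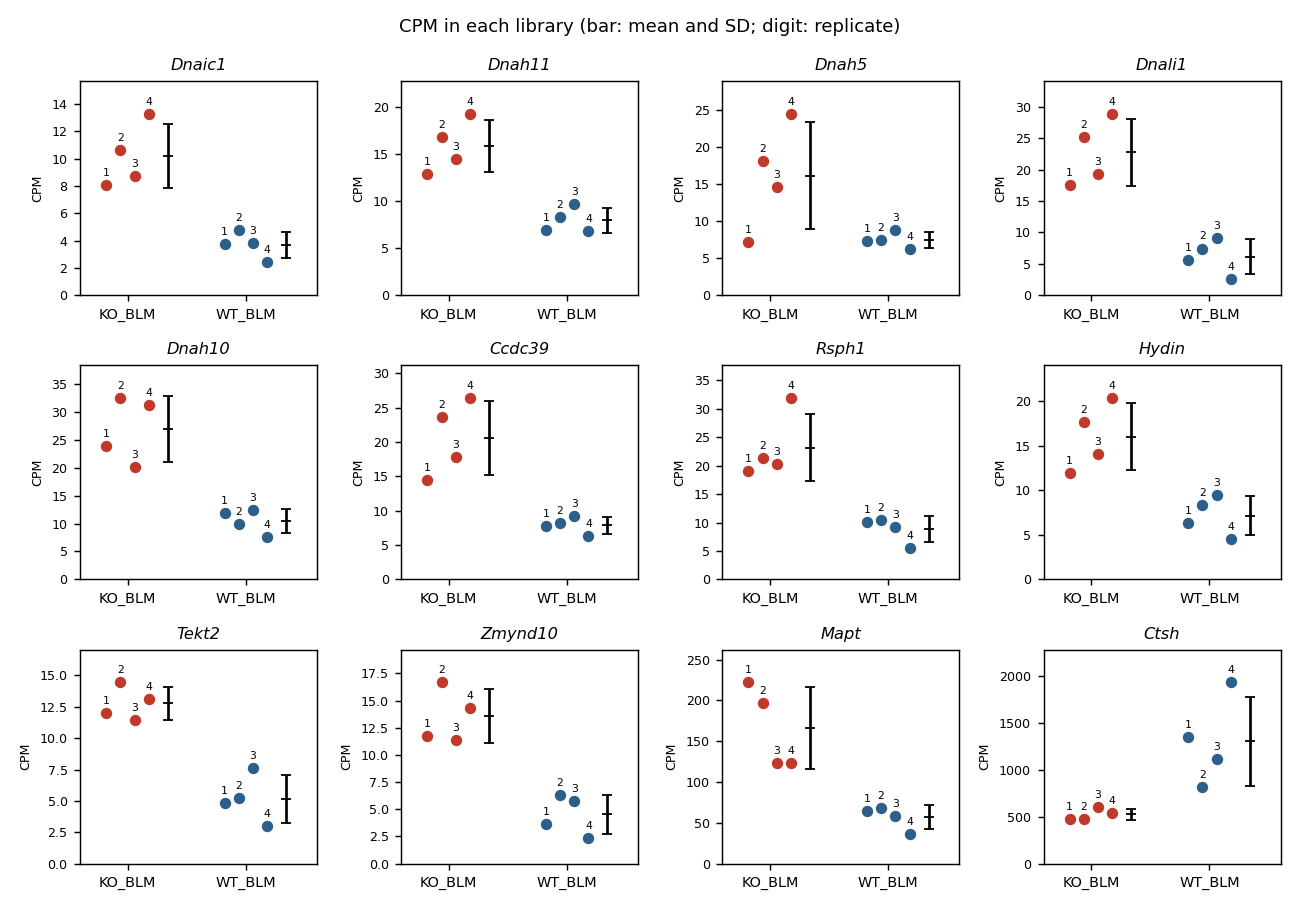
CPM of 12 genes in each library, KO_BLM left and WT_BLM right of each panel, with replicate numbers beside the points and a bar for the mean and SD of the 4 libraries. In the first 11 panels knockout values are the higher ones, Dnah5 replicate 1 excepted, and in Ctsh all 4 lie below the wild-type libraries.

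The nexin-dynein regulatory complex ties neighbouring doublets together, and the ruler proteins Ccdc39 and Ccdc40 set the repeat along which arms and spokes attach. All 15 genes of this list were tested and all 15 were called higher, with a median log2 fold change of 1.17. In the alternatives, 12 to 15 of them were called higher. Ccdc39 (chromosome 3 from 33810757 to 33844325) had 14.5, 23.7, 17.8 and 26.4 CPM in KO_BLM and 7.81, 8.23, 9.21 and 6.26 CPM in WT_BLM. Its groups were far apart compared with their spread (edgeR adjusted p = 0.000783, log2 fold change 1.38, SE 0.20), and an exon of Ttc14 overlaps it on the other strand. Ccdc40, which acts with it, averaged 24.5 ± 7.32 CPM in KO_BLM and 14.2 ± 2.35 CPM in WT_BLM (SD, n = 4 each; 1.72-fold, edgeR adjusted p = 0.0138). The largest difference was that of Iqca, a subunit of the complex also called Drc11, at 5.45, 8.93, 5.74 and 9.44 CPM in KO_BLM and 2.20, 2.73, 2.73 and 1.47 CPM in WT_BLM (3.23-fold, edgeR adjusted p = 0.00118). Drc1, the scaffold, and Ccdc113 were 2.71-fold and 2.36-fold higher (edgeR adjusted p = 0.00259 and 0.00163). Gas8, another subunit, had the smallest increase, 1.23-fold (edgeR adjusted p = 0.0378).

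Radial spokes pass signals from the central apparatus to the arms, and 7 of 9 tested spoke genes were higher and 0 lower. Rsph1, a spoke head protein (chromosome 17 from 31255019 to 31277296), had 19.1, 21.4, 20.3 and 31.9 CPM in KO_BLM and 10.01, 10.46, 9.27 and 5.45 CPM in WT_BLM. The difference was 2.63-fold without overlap (edgeR adjusted p = 0.00138). Rsph4a and Rsph9, which stand in the same spoke head, were 2.42-fold and 1.66-fold higher (edgeR adjusted p = 0.00733 and 0.00442). Dnajb13, of the spoke neck, was 2.19-fold and Wdr66 1.72-fold higher (edgeR adjusted p = 0.00141 and 0.00413). Ak8 and Ropn1l had log2 fold changes of 0.39 and 0.41 and were not called (edgeR adjusted p = 0.145 and 0.262).

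All 11 genes counted with the central apparatus were called higher, with a median of 1.16 on the log2 scale. Enkur was also on the list of doublet and inner proteins and was counted only here. Cfap65 was also on the central apparatus list but was counted only with the inner dynein arm. Hydin, a giant protein of the central pair (chromosome 8 from 110266968 to 110610253), had 12.0, 17.7, 14.1 and 20.4 CPM in KO_BLM and 6.32, 8.33, 9.48 and 4.52 CPM in WT_BLM (2.24-fold, edgeR adjusted p = 0.00460). Spag6l (chromosome 16 from 16753016 to 16829363) had 10.4, 15.1, 12.8 and 17.7 CPM in KO_BLM and 4.73, 6.75, 6.05 and 2.78 CPM in WT_BLM (2.75-fold, edgeR adjusted p = 0.00232). Reads of Spag6l and its near-identical copy Spag6 can be split between them, so its count is uncertain. Enkur, Cfap70, Cfap221 and Spef2 were 2.53-fold, 2.46-fold, 2.85-fold and 2.16-fold higher (edgeR adjusted p = 0.00148, 0.00262, 0.00804 and 0.00315).

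Of 13 genes of the microtubule doublet and the proteins inside it, 10 were tested, 6 were higher and 0 lower. Tekt2, a tektin filament protein (chromosome 4 from 126322121 to 126325688), had 12.0, 14.4, 11.5 and 13.1 CPM in KO_BLM and 4.84, 5.21, 7.61 and 2.995 CPM in WT_BLM. Knockout libraries were close to each other and all above the wild-type ones (2.47-fold, edgeR adjusted p = 0.00243). Tekt4 and Spaca9 were 2.16-fold and 2.40-fold higher (edgeR adjusted p = 0.00112 and 0.00276). Rp1, a microtubule-binding protein best known from photoreceptors, was 2.69-fold higher, with 5.53 ± 1.08 CPM in KO_BLM and 2.05 ± 0.353 CPM in WT_BLM (SD, n = 4 each; edgeR adjusted p = 0.000893). Tekt5 had a log2 fold change of -0.27, Cfap52 of 0.54, Efhc2 of 0.41 and Cfap20 of 0.17, and none of the 4 was called (edgeR adjusted p = 0.309, 0.115, 0.234 and 0.0801). Cfap20, which had the highest mean level per length of the tested axoneme genes at 31.0 FPKM, had all knockout libraries above the wild-type ones all the same, at 42.6 to 45.5 CPM in KO_BLM and 37.8 to 41.2 CPM in WT_BLM.

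The order of libraries was shared across the axoneme genes. Among the 65 called higher, KO_BLM replicate 4 had the highest knockout value in 51 and KO_BLM replicate 1 the lowest in 53, and WT_BLM replicate 4 had the lowest wild-type value in 57. Summed over all 86 genes, FPKM was 294.9, 378.8, 345 and 468.6 in KO_BLM replicates 1 to 4 and 192, 222.1, 222.5 and 151 in WT_BLM replicates 1 to 4, a ratio of means of 1.89. Without KO_BLM replicate 4 the number called higher was 56 and without WT_BLM replicate 4 it was 59. Counts were similar at low and high levels. Of the 40 tested axoneme genes with the lower mean level (0.119 to 2.21 FPKM) 32 were higher, with a median of 1.07, and of the 40 with the higher level (2.33 to 31.0 FPKM) 33 were higher, with a median of 1.10.

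**Figure D3:**
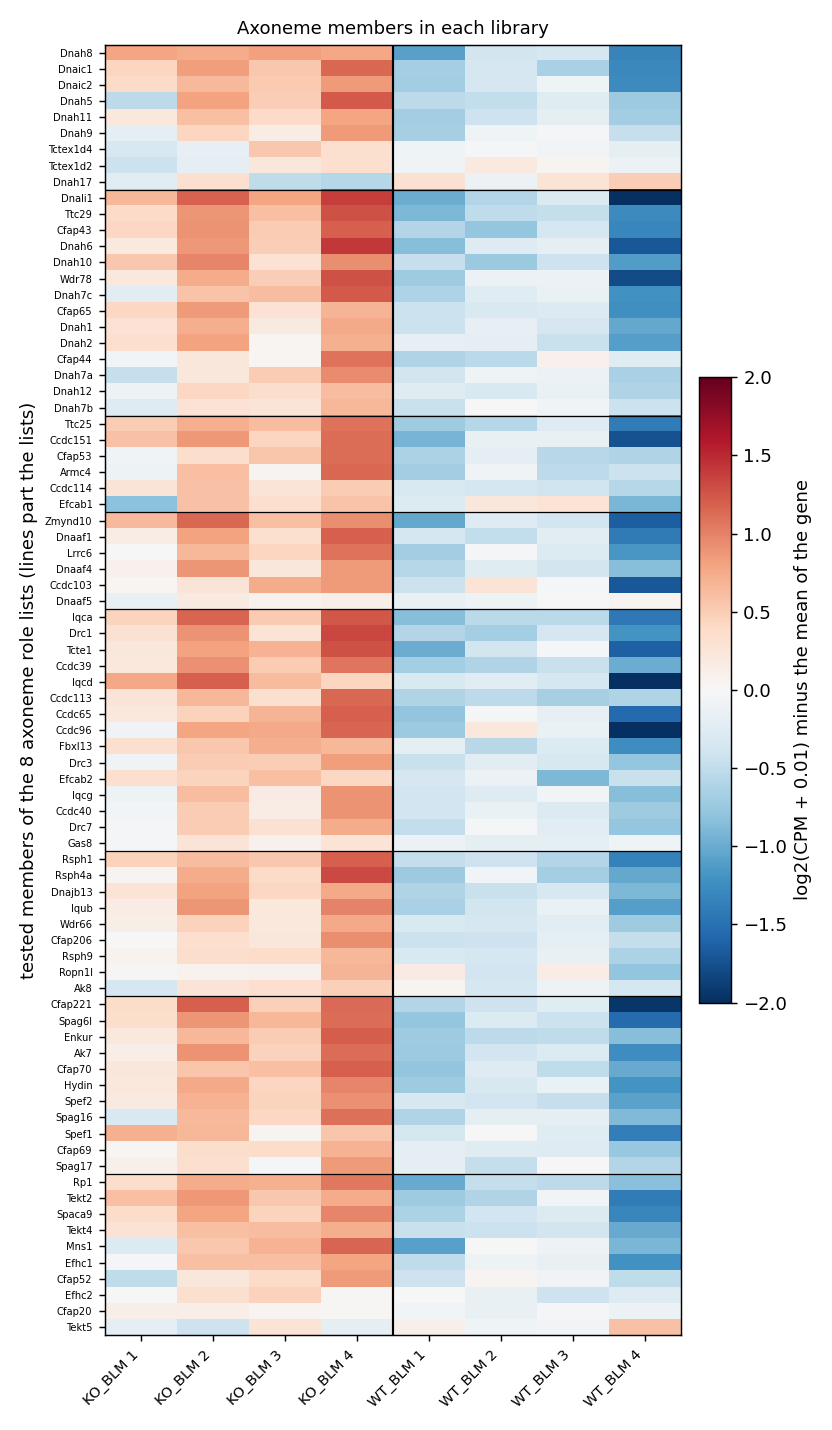
Each row is a tested axoneme gene and each column a library, KO_BLM left of the line; colour is log2(CPM + 0.01) minus the mean of the gene over the 8 libraries. Replicate 4 of KO_BLM is the reddest column (median 0.91) and replicate 4 of WT_BLM the bluest (median -1.003), with replicate 1 of KO_BLM the palest knockout column (median 0.14).

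RefSeq promoter windows of GRCm38.p6, from 250 bases before to 50 after a start site, were read for the 203 genes, called or not. RFX factors bind the X-box, an inverted repeat, and FOXJ1 is a forkhead factor, both known as regulators of motile cilium genes. On both strands, the X-box arm GTTGCC, the whole X-box (GTTNCC, any 2 bases, then GGNAAC), the forkhead word TGTTTAC and the TATA word TATAAA were searched. The arm can lie inside the whole X-box, so those 2 counts overlap. Windows were found for 69 of the 86 axoneme genes and for 170 of all 203 genes. Shown are, 1 for each of 5 role lists, the called genes of largest increase whose window holds the arm, with each match of the arm, or of the whole X-box in Iqca, in capitals. The windows read 5′ to 3′ on the strand of the gene, and a match on the other strand appears as its reverse complement.
Iqca (chr1:90153387-90153686, minus strand): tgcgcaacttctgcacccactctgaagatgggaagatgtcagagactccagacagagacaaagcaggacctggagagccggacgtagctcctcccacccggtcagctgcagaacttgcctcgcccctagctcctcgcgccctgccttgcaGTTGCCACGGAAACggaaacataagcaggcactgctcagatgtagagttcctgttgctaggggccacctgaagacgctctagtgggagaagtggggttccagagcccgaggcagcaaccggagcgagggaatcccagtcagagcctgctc
Zmynd10 (chr9:107547054-107547353, plus strand): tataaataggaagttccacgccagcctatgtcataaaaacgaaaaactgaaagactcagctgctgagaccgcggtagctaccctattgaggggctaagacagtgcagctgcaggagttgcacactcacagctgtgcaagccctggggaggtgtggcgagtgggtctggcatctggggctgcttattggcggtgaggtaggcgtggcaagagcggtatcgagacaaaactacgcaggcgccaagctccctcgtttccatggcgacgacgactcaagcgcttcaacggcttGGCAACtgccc
Spag6l (chr16:16829314-16829613, minus strand): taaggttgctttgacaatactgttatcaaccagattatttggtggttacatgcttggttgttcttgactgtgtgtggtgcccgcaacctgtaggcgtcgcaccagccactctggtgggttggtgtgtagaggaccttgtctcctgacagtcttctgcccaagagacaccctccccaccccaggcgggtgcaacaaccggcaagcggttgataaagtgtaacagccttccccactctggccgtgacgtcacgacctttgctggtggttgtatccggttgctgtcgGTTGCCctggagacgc
Dnah10 (chr5:124724835-124725134, plus strand): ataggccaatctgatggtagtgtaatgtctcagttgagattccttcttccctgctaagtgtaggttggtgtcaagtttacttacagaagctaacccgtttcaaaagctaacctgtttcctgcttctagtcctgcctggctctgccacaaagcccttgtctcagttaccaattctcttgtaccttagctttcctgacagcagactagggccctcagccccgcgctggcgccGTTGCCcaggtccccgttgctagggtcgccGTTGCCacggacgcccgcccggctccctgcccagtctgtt
Tekt2 (chr4:126325639-126325938, minus strand): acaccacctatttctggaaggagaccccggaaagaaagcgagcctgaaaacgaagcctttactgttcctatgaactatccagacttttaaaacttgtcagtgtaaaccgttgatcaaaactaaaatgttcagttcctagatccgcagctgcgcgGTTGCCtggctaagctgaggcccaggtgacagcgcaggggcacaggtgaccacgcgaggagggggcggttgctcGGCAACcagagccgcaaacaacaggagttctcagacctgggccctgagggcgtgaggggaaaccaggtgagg
The window of Dnah10 holds 2 copies of the arm in the same direction, and that of Tekt2 holds 2 in opposite directions. In Iqca the match is the whole X-box. The arm was found in 29 of the 69 axoneme genes with a window (42.0%), against 14.1% of 27025 genes with a window and 15.1% of the 11669 tested genes with a window. In the other members it was found in 22.8%, and in 0 of the 12 genes called lower that had a window, where so few genes allow no reading. Axoneme genes called higher had it in 41.2%, no more often than all axoneme genes with a window (42.0%). Called-higher genes outside the axoneme lists had it in 39.1%. The whole X-box was found in the windows of Iqca and Ccdc151 alone among axoneme genes (2.90%, against 0.529% of all genes), the forkhead word in 8.70%, against 4.05% of all and 3.21% of tested genes, and the TATA word in 4.35%, against 15.7% of all and 9.45% of tested genes. Of the axoneme genes called higher that had a window, 5.88% held the forkhead word and 5.88% the TATA word. A match is a run of letters and not a measured binding site.

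Genes of the sperm tail went in both directions. Of 32, 18 were tested, 7 were higher (38.9%) and 2 lower (11.1%), against 20.7% and 20.8% of all tested genes. Tcp11, known from sperm, had 9.64, 11.4, 9.85 and 13.2 CPM in KO_BLM and 4.67, 5.46, 4.66 and 3.54 CPM in WT_BLM (2.40-fold, edgeR adjusted p = 0.000558). Septin4, part of the ring below the sperm midpiece, had 290.5, 244, 214 and 168 CPM in KO_BLM and 157, 119, 137 and 135 CPM in WT_BLM (1.68-fold, edgeR adjusted p = 0.00503). Its knockout libraries had replicate 1 highest and replicate 4 lowest, where the axoneme sum had replicate 4 highest and replicate 1 lowest. Cabyr, a calcium-binding protein of the fibrous sheath, was the gene of largest decrease: 0.386, 0.223, 0.469 and 0.209 CPM in KO_BLM and 2.53, 1.39, 1.23 and 2.12 CPM in WT_BLM, 5.54-fold lower on few reads (edgeR adjusted p = 0.00103). Slc9b2, a sodium-proton exchanger, was 3.71-fold lower (edgeR adjusted p = 0.000350). The number called lower in this list was 1 by limma on log2(FPKM + 1) with a filter, and 4 by DESeq2, by edgeR without a filter and by both unfiltered limma fits on FPKM. Well-known sperm genes had almost no reads: Akap4 had 8 counts in all KO_BLM libraries and 7 in all WT_BLM libraries, Catsper1 0 and 2, and Adcy10, a soluble cyclase, 3 and 3, and none was tested.

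In the list of signalling, trafficking and tubulin-modifying genes, 28 of 31 were tested, with a median log2 fold change of 0.21. Of these, 11 were higher (39.3%) and 4 lower (14.3%), against 20.7% and 20.8% of all tested genes. The largest increases of all members were found here. Akap14, a kinase anchor of cilia, had 1.65, 3.18, 1.98 and 3.39 CPM in KO_BLM and 0.550, 0.942, 0.911 and 0.218 CPM in WT_BLM (3.84-fold, edgeR adjusted p = 0.00529), and shares exon sequence with Nkap on the other strand. Dcdc2a was 3.75-fold higher (edgeR adjusted p = 0.00876) and Ttll10, which adds glycine chains to tubulin, 3.16-fold (edgeR adjusted p = 0.00324). Ttll3, a tubulin glycine ligase whose exons overlap Arpc4 on the same strand, was 1.70-fold higher (edgeR adjusted p = 0.00352). Going the other way, Gli3, a hedgehog transcription factor tied to primary cilia, had 5.07, 4.13, 3.18 and 4.38 CPM in KO_BLM and 10.5, 9.13, 10.2 and 12.2 CPM in WT_BLM (2.51-fold lower, edgeR adjusted p = 0.000423). Pkd2, a calcium channel of primary cilia and endoplasmic reticulum, was 1.49-fold lower (edgeR adjusted p = 0.00335).

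The remaining 54 genes hold a cilium term beside other main roles. Of 46 tested, 11 were higher and 10 lower, with a median log2 fold change of 0.02, so they stood close to the whole table (20.7% higher, 20.8% lower). Mapt, the microtubule protein tau (chromosome 11 from 104229409 to 104332090), had 222, 196, 124 and 123 CPM in KO_BLM and 64.7, 68.6, 58.5 and 36.6 CPM in WT_BLM, 2.91-fold higher (edgeR adjusted p = 0.00118). Replicates 1 and 2 of KO_BLM were its highest, unlike the axoneme genes. Of the 29 called-higher genes outside the axoneme lists, 10 had KO_BLM replicate 1 above replicate 4, where 3 of the 65 axoneme genes did (Spef1, Iqcd and Dnah8).

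This group held 10 of the 16 genes called lower. Ctsh, the lysosomal protease cathepsin H (chromosome 9 from 90054267 to 90076095), had 472, 481, 604 and 546 CPM in KO_BLM and 1348, 820.0, 1122 and 1938 CPM in WT_BLM, 2.48-fold lower (edgeR adjusted p = 0.00185). It also had the highest level per length of all members, at 325 ± 44.2 FPKM in KO_BLM and 753 ± 250.2 FPKM in WT_BLM (SD, n = 4 each). Scnn1a, a subunit of the epithelial sodium channel, was 2.14-fold lower (edgeR adjusted p = 0.00688). Anxa1, a phospholipid-binding protein of inflammation, had 228, 262, 445 and 497 CPM in KO_BLM and 668, 575, 564 and 733 CPM in WT_BLM (1.77-fold lower, edgeR adjusted p = 0.0192), and was not called without KO_BLM replicate 2 (0.0571, range over alternatives 0.00137 to 0.0571). Septin9 and Hif1a, the hypoxia factor, were 1.93-fold and 2.02-fold lower (edgeR adjusted p = 9.05e-05 and 0.00145). Dzip1l was 1.65-fold and Cep295nl 2.74-fold lower (edgeR adjusted p = 0.00100 and 0.00793). The autophagy proteins Gabarap and Map1lc3b, also among the 5 genes of highest level, had log2 fold changes of -0.25 and -0.04 (edgeR adjusted p = 0.0610 and 0.763). Gabarap was called lower in 4 of 18 alternatives, by DESeq2, by limma-voom, with a replicate block and without KO_BLM replicate 3 (range of adjusted p over alternatives, edgeR and the others, 0.0149 to 0.266).

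**Figure D4:**
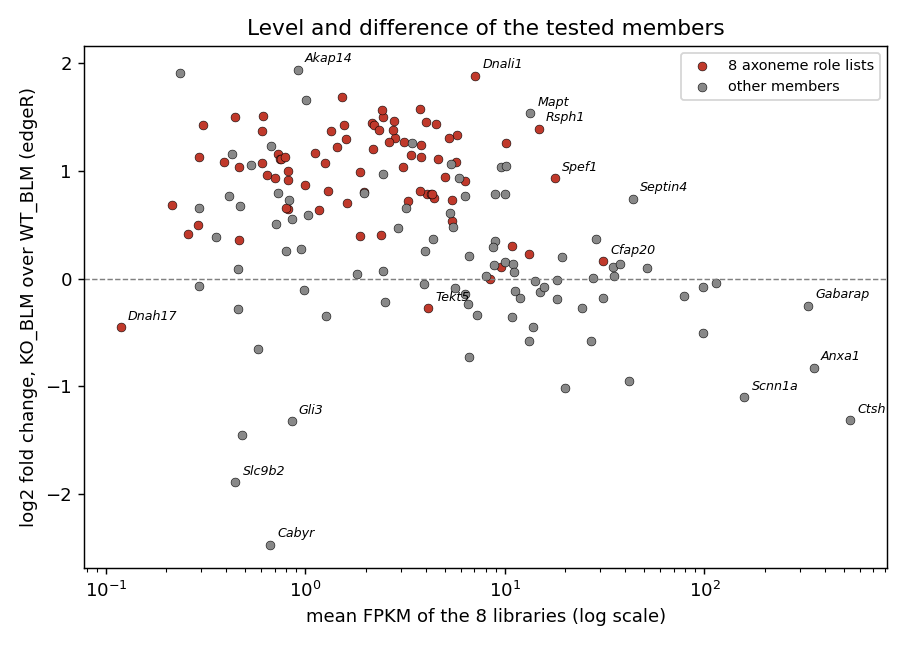
Mean FPKM over the 8 libraries (horizontal, log scale) against the edgeR log2 fold change of KO_BLM over WT_BLM for the 172 tested genes, axoneme genes in red. Axoneme genes lie between 0.119 and 31.0 FPKM, and among the more abundant genes Ctsh, Anxa1 and Scnn1a lie below 0 and Septin4, at 43.8 FPKM, lies above it.

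The 31 genes that were not tested had at most 90 counts over the 8 libraries together, and 7 of them had 0 counts in a whole group. They comprise 14 of the 32 sperm tail genes and 6 of the 86 axoneme genes.

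Genes of the same structures that the annotation terms had missed were also mostly higher. Of 102 such genes in the 8 axoneme lists, 93 were tested, 60 were higher and 2 lower, with a median log2 fold change of 0.80. Tekt1, a tektin, was 1.73-fold higher (edgeR adjusted p = 0.00967). The largest increase was that of Lrrc23, a radial spoke protein, with 30.4, 34.3, 24.8 and 38.4 CPM in KO_BLM and 6.82, 8.33, 9.27 and 2.78 CPM in WT_BLM (edgeR adjusted p = 0.000515). The 2 lower genes, Tubb3 and Map6, are best known from neurons (4.66-fold and 2.00-fold lower, edgeR adjusted p = 0.00213 and 0.000591). Lrrc23, Tubb3 and Map6 were picked after their values were seen. Ciliated cell markers outside the rule, which share 2 genes with those lists, had 26 higher and 0 lower of 30 tested (median 0.91). Tppp3, a tubulin-binding protein, had 345, 416, 314 and 334 CPM in KO_BLM and 103, 99.5, 96.0 and 64.5 CPM in WT_BLM (edgeR adjusted p = 2.73e-05), and Sec14l3 was 1.61-fold higher (edgeR adjusted p = 0.000423).

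The regulators of multiciliated cells were uneven. Of 18 tested, 8 were higher (44.4%) and 2 lower (11.1%), against 20.7% and 20.8% of all tested genes (median 0.39). Foxj1, the forkhead factor that switches on motile cilium genes, had 55.3, 83.5, 68.3 and 116 CPM in KO_BLM and 38.7, 61.5, 60.1 and 35.0 CPM in WT_BLM. Its groups overlapped, at KO_BLM replicate 1, and the log2 fold change was 0.73 (SE 0.25; by edgeR, adjusted p = 0.0399). The call was lost without KO_BLM replicate 2 or 4 (edgeR adjusted p = 0.0817 and 0.105), without WT_BLM replicate 1 or 4 (0.103 and 0.0941) and in 4 further alternatives (range over all 0.0133 to 0.105). Rfx3 had a log2 fold change of 0.43 (edgeR adjusted p = 0.0425), lost in 10 of 17 alternatives including every fit without a library but that without KO_BLM replicate 1 (0.0507 to 0.103), and Rfx2 was not called (0.21, edgeR adjusted p = 0.159). Trp73, the p73 factor upstream of Foxj1, was 2.67-fold higher (edgeR adjusted p = 0.000453), and Tfdp1, a cell cycle partner of E2F, 1.45-fold lower (edgeR adjusted p = 0.000986). Gmnc, a geminin relative that starts the multiciliated programme, had 2.81, 2.01, 0.574 and 1.56 CPM in KO_BLM and 0.275, 0.198, 0.107 and 0.0545 CPM in WT_BLM (edgeR adjusted p = 0.00183), so its wild-type values rest on a few reads. The transcription factor Myb had 6.22, 10.4, 7.51 and 9.12 CPM in KO_BLM and 2.92, 3.47, 3.80 and 1.85 CPM in WT_BLM, without overlap (edgeR adjusted p = 0.00169). Intraflagellar transport and transition zone genes, which serve primary cilia too, had 16 higher (35.6%) and 1 lower (2.22%) of 45 tested (median 0.20). Among them, Ift43 was 1.34-fold and Dync2li1 1.59-fold higher (edgeR adjusted p = 0.00219 and 0.00239).

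Markers of other lung epithelium differed between the groups in some lists but not in all. Of all tested genes, 20.7% were called higher and 20.8% lower, and the basal cell and cartilage lists stood near or below these shares. Club and goblet cell markers had 7 of 12 tested higher and 0 lower (median 1.36), alveolar type 2 markers 11 of 12 and 0 (median 1.42), alveolar type 1 markers 4 of 10 and 0 (median 0.34) and basal cell markers 1 of 6 and 0 (median -0.13). Pan-epithelial markers were split, with 3 higher and 3 lower of 8 (median -0.01), and cartilage markers, found around large airways, had 1 higher and 1 lower of 5 (median 0.19). The summed level of club and goblet markers was 48690, 48130, 25230 and 30270 FPKM in KO_BLM replicates 1 to 4 and 18920, 6073, 15160 and 13880 FPKM in WT_BLM, and that of alveolar type 2 markers 34770, 33050, 26210 and 24120 FPKM in KO_BLM and 8243 to 11530 FPKM in WT_BLM. Both sums were highest in KO_BLM replicates 1 and 2, whereas the axoneme sum was highest in replicate 4 and lowest in replicate 1. Genes of high level can dominate such sums and set their order, so other genes of a list can have another order. Pan-epithelial markers summed to 575 to 763 FPKM in KO_BLM and 745 to 822 FPKM in WT_BLM, and no marker of these lists other than those for germ cells was at 0 in a whole group. The part that these cell types have in the axoneme result was not tested.

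**Figure D5:**
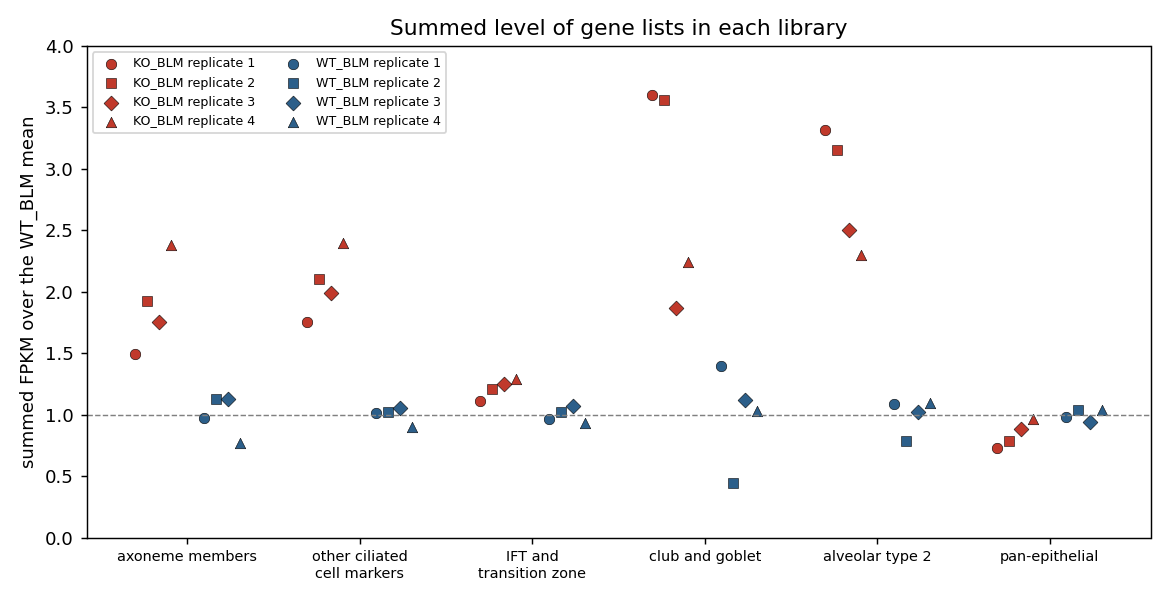
Summed FPKM of gene lists in each library divided by the WT_BLM mean of the list, KO_BLM left of WT_BLM, with a symbol for each replicate number; the dashed line is 1. Axoneme genes reach 1.497 to 2.38 in KO_BLM with replicate 4 highest, and alveolar type 2 markers 2.30 to 3.32 with replicate 1 highest.

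Markers of the larger airways were mixed. Cartilage markers summed to 8.40, 10.2, 5.27 and 7.78 FPKM in KO_BLM replicates 1 to 4 and 2.59, 2.29, 2.41 and 1.64 FPKM in WT_BLM replicates 1 to 4. Every knockout library was above every wild-type library, and the ratio of means was 3.55. Most of the knockout sum came from Chad, a matrix protein of cartilage, with 11.9, 14.8, 5.79 and 9.65 CPM in KO_BLM and 1.59, 1.14, 1.23 and 0.381 CPM in WT_BLM (9.62-fold higher, edgeR adjusted p = 0.000285). Without Chad, a sum taken after the values were seen, the other 10 markers gave 1.27 to 1.69 FPKM in KO_BLM and 1.43 to 1.68 FPKM in WT_BLM, and these ranges overlap. Hapln1, a cartilage link protein, was 2.02-fold lower (edgeR adjusted p = 0.0180), and was not called without KO_BLM replicate 2 or WT_BLM replicate 1 (0.0528 and 0.0562, range over alternatives 0.00720 to 0.0562).

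Among secretory genes typical of larger airways, Muc5b, a gel-forming mucin, was called higher. It had 6.01, 18.5, 32.3 and 32.6 CPM in KO_BLM and 13.6, 2.88, 6.38 and 3.70 CPM in WT_BLM, so the groups overlapped at KO_BLM replicate 1 (3.38-fold, edgeR adjusted p = 0.0322). The call was lost in 11 of 18 alternatives, among them the fits without KO_BLM replicate 2, 3 or 4 or WT_BLM replicate 2, 3 or 4 (edgeR adjusted p 0.0521 to 0.0805, and 0.00906 to 0.0805 over all). Bpifb1, a secreted airway protein, had 0.992, 7.20, 41.5 and 56.2 CPM in KO_BLM and 15.4, 2.33, 3.70 and 1.74 CPM in WT_BLM and was not called (log2 fold change 2.20, edgeR adjusted p = 0.122), though 2 of 18 alternatives called it. Its relative Bpifa1 had 3.75, 30.4, 68.7 and 153 CPM in KO_BLM and 149.8, 26.9, 27.1 and 17.9 CPM in WT_BLM, and Scgb3a1, a secretoglobin, 5.84, 18.2, 87.1 and 165 CPM in KO_BLM and 129.8, 21.9, 25.7 and 18.5 CPM in WT_BLM. Neither was called (edgeR adjusted p = 0.877 and 0.702). These 4 genes, chosen after their values were seen, were highest in KO_BLM replicate 4 and lowest in KO_BLM replicate 1 among the knockout libraries, as the axoneme sum was. In Muc5b, replicates 3 and 4 were nearly equal. Replicate 3 stood above replicate 2 in these genes, which the axoneme sum reversed. The sum of the whole club and goblet list, which holds these 4 genes, was instead highest in KO_BLM replicates 1 and 2. In WT_BLM replicate 1 was highest in all 4, unlike the axoneme sum, and replicate 4 was lowest in Bpifa1, Bpifb1 and Scgb3a1, as in the axoneme sum. The part of large-airway tissue in the axoneme result was not tested.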

How the data were processed

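Whole-lung RNA behind 4 KO_BLM and 4 WT_BLM libraries was extracted with TRIzol and prepared with the TruSeq stranded mRNA kit, per the labels' protocols. The authors deposited raw counts per gene and FPKM values in whole-series tables. Per the submitters' processing notes, Trimmomatic, HTSeq, Cufflinks and DESeq were used, on mm10. For the aligner, annotation and strand setting: not given in the sources used here. Deposited FPKM equalled the count divided by total count and gene length.

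From the counts, edgeR 4.0.16 (R 4.3.3) fitted KO_BLM against WT_BLM over all genes, with TMM factors, a filter of 10 counts (15 in all), its robust quasi-likelihood F test and Benjamini-Hochberg adjusted p under 0.05. CPM are counts scaled by TMM. The biological coefficient of variation was 16.6%. Alternatives were other scalings and filters, DESeq2 1.42.0, limma 3.58.1 on voom weights or log2(FPKM + 1 or 0.1), a replicate block and each library left out. The script was tested on simulated data. Replicates of a group all differed by more than sampling noise (chi-square over its degrees of freedom, 7.24 to 55.7). Exon overlaps were found for 53 members on the opposite strand and 11 on the same strand, among 194 in the annotation. Only some are named with their genes above. Among the others, Dnaic1, Dnah11, Dnah17, Dnaaf1, Dnajb13, Tctex1d4, Tmem67 and Map1lc3b overlap a protein-coding gene on the opposite strand. On the same strand, Hif1a, Ccdc103 and Spef1 overlap a protein-coding gene and Tcp11 a processed transcript.

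Members and gene lists were chosen with earlier results of these data known. Named genes are the 4 of smallest p in each role list, the 10 largest increases and 10 largest decreases of at least 1 CPM, the 5 of highest FPKM, the 2 of smallest p in each outside list, and a preset list; genes named beyond these were chosen after their values were seen.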

Additional observations from a re-analysis of the deposited data

Results flagged for a closer look

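In 5 of 164 groups of 4 libraries that were looked at, the highest or lowest library stood apart from the other 3, by a gap that took a larger share of the group's range than Dixon's critical value. Chance alone flags about 1 in 20 groups. Cfap53 was high in WT_BLM replicate 2, at 5.06 CPM where the others had 3.69 to 3.86 CPM (gap 0.874 of the range). Tekt4 was low in WT_BLM replicate 4, at 3.76 CPM where the others had 5.55 to 5.89 CPM (0.841). Slc9b2 was low in WT_BLM replicate 2, at 3.17 CPM where the others had 4.66 to 4.79 CPM (0.919). Pkd2 was high in WT_BLM replicate 4, at 247 CPM where the others had 196 to 201 CPM (0.888). Krt14, a basal cell keratin, was high in WT_BLM replicate 1, at 14.9 CPM where the others had 0.327 to 1.54 CPM (0.917).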

How the results depend on the processing

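Of 110 called members, 88 were called in the same direction in every one of the 18 alternatives that gave a value, and 0 changed sign; of the 65 axoneme genes called higher, 55 were. Members called higher numbered 94, with 80 to 102 over the alternatives that kept all libraries and 79 to 98 with a library left out; members called lower numbered 16, with 12 to 19 and 13 to 18; and axoneme genes called higher 65, with 52 to 67 and 56 to 70. The median log2 fold change of 0.67 was 0.46 by limma on log2(FPKM + 1) with a filter and 0.26 without, a pseudocount that shrinks the change of low genes, and 0.55 to 0.74 with a library left out. Map1lc3b, not called at -0.04, was above 0 with library totals alone (0.0483), by limma-voom (0.0051), by limma on log2(FPKM + 1), filtered or not (0.0462 each), and on log2(FPKM + 0.1) (0.0466), and without KO_BLM replicate 4 (0.0094) or WT_BLM replicate 4 (0.01), and ran from -0.09 to 0.01 with a library left out. Zpbp, a germ cell marker not called at -0.32, was at 0.0273 without WT_BLM replicate 4 and ran from -0.56 to 0.0273 with a library left out. The cause was not tested. With library totals alone the median of all genes shifted by 0.0858. Deviations of same-numbered libraries correlated at 0.0887, -0.00467, 0.000325 and -0.0922, so no pairing by number was seen. These correlations cannot exclude a shared batch. With the replicate block 89 members were higher and 17 lower, 61 axoneme genes were higher, 104 of 110 calls were kept and the median was 0.66. Genes with few reads, such as Cabyr, are limited by depth.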
